A study of Mus musculus with 8 samples.

Results

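The genes described here are 9 genes of the CXC chemokine family and the CX3C chemokine gene, read in mouse fibroblasts: Cxcl9, Cxcl10, Cxcl11, Cxcl1, Cxcl2, Cxcl5, Cxcl12, Cxcl14, Cxcl16 and Cx3cl1. They were chosen by symbol and role, and all 10 were found among the 24015 genes of the deposited count tables. Chemokines are small secreted or membrane-anchored proteins that guide cells along concentration gradients by binding G-protein-coupled receptors. CXCL9, CXCL10 and CXCL11 bind CXCR3, the receptor of activated T cells and NK cells, and are classical interferon-induced proteins. CXCL1, CXCL2 and CXCL5 bind CXCR2 and draw neutrophils, CXCL12 and CXCL14 are made constitutively in many tissues, and CXCL16 and CX3CL1 are made as transmembrane proteins that are also shed.

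The cells were murine embryonic fibroblasts (MEFs), connective tissue cells cultured from mouse embryos. RNA was sequenced from 2 libraries of MEFs given recombinant murine interferon-beta (IFN-beta) at 100 units/mL for 6 h and from 2 libraries of untreated MEFs. Both groups shared a wild type genotype, a C57bl/6 strain background, an embryonic age of E12.5 and passages 15 to 18. The series was built around epitope-tagged histone H3.3, and its chromatin samples were not analysed here. The libraries held 18901845 and 20714161 gene counts with IFN-beta and 18528685 and 24817342 without, and replicates of a group were not copies of each other, since their chi-square statistic divided by the number of genes was 9.42 within the IFN-beta pair and 26.2 within the untreated pair, where sampling noise alone gives about 1. The labels number the replicates without saying that they were separate cultures, so the p-values below rest on a spread that may be technical. Levels are given as CPM, counts scaled to a common library size with TMM factors. CPM is not corrected for transcript length, so levels are compared between libraries and not between genes.

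The labelled cell type was checked against fixed marker lists. All 10 fibroblast markers were well counted, with a summed level of 4980 and 4900 CPM in the IFN-beta libraries and 4050 and 4140 CPM in the untreated ones. With all libraries kept, edgeR with its count filter and group as the only term called 0 of them changed (2 at an unadjusted p under 0.05). DESeq2 and limma-voom also called 0. Pdgfra, which encodes a growth factor receptor, was called lower without IFN-beta replicate 1 (edgeR adjusted p = 0.0446), with the replicate block (0.0429) and with no filter on counts (0.0031). Leaving out the second untreated library, the log2 fold changes of Col1a1 and Col1a2 were 0.62 and 0.43. Those of Dcn, Lum and Pdgfra were -0.75, -1.25 and -0.97 in that fit. The 11 leukocyte markers summed to 22.5 and 16.9 CPM with IFN-beta and 23.5 and 18.2 CPM without and did not move together. Fcgr1, an Fc receptor gene, had 17 and 7 counts with IFN-beta and 0 in both untreated libraries, which is below the count filter (edgeR adjusted p = 7.7e-05 with all counted genes kept). Lyz2, the lysozyme gene of macrophages, was at 3.81 and 1.36 CPM with IFN-beta and 8.52 and 2.54 CPM without, and was called lower without untreated replicate 2 (edgeR adjusted p = 1.6e-10), without IFN-beta replicate 1 (0.000534), with the replicate block (0.0079) and without a count filter (0.000877). Csf1r stood at 4.38 to 6.84 CPM and Cd14 at 7.48 to 8.97 CPM over the 4 libraries, and neither was called. Cd68 was at 1.46 and 1.21 CPM with IFN-beta and 0.832 and 0.683 CPM without (unadjusted p = 0.0497, edgeR adjusted p = 0.274), and Cd3e was at 0. The 7 endothelial markers summed to 3.31 and 2.02 CPM with IFN-beta and 1.14 CPM in each untreated library, Emcn was at 0 and Pecam1 had at most 2 counts. Tek went the other way from the sum, with 0 counts in both IFN-beta libraries and 5 and 2 without. Kdr had 32 and 20 counts with IFN-beta and 10 and 18 without (edgeR unadjusted p = 0.0201, adjusted p = 0.177). Cdh5 of that list had 24 and 19 counts with IFN-beta and 2 and 6 without. It passed the count filter only through the IFN-beta libraries, so its tested value (edgeR adjusted p = 0.014, and 0.0777 without IFN-beta replicate 1) was favoured by the filter. With every counted gene kept the adjusted p was 0.000333. That fit also lowered the adjusted p of Pdgfra (from 0.199) and Lyz2 (from 0.349) at unchanged log2 fold changes. Its smaller p-values, that of Fcgr1 included, are therefore not read as stronger evidence. The 6 epithelial markers stayed between 0.468 and 1.02 CPM in sum. The part of such cells in the results below was not tested. In bulk RNA, a change in the number of cells of a type and a change in RNA per cell cannot be told apart.

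Of the CXCR3 ligand genes, Cxcl10 rose after IFN-beta, and Cxcl9 and Cxcl11 had a few reads in the treated libraries alone. Cxcl10 had 37581 and 36412 counts in the IFN-beta libraries, against 21 and 29 counts in the untreated libraries. This was 2110 and 1830 CPM with IFN-beta and 1.09 and 1.10 CPM without, so the groups lay far apart and the replicates of each close together. The log2 fold change was 10.80 ± 0.22 (SE, 95% interval 10.31 to 11.30, a fold of 1790), with an adjusted p of 1.9e-09 in edgeR's quasi-likelihood test with Benjamini-Hochberg adjustment. It ranked 11th in fitted log2 fold change among the 12128 tested genes. The genes above it include Mx1, which had 0 untreated counts, so the rank is not an order of measured folds. Of the 7 tested members 2 were called higher, against a background of 4.73% of all tested genes. Of these Cxcl9 entered the test only through its treated counts, so the count is not read against the background. With no filter on counts all 10 members were tested and 3 were called higher, the third being Cxcl11. That fit called 5.16% of all its genes higher. In some fits with a library left out Cxcl11 passed the filter, but only through its treated counts. Without untreated replicate 2 the log2 fold change of Cx3cl1 was 1.32. Without IFN-beta replicate 2, Cxcl9 missed the count filter. None was called lower, against a background of 0.495%. At an unadjusted p under 0.05 no member was lower either, and DESeq2 and limma-voom also called 0 lower.

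Cxcl9 and Cxcl11 were counted only after treatment, and at few reads. Cxcl9, which encodes the ligand best known for its induction by interferon-gamma, had 14 and 18 counts with IFN-beta and 0 in both untreated libraries. These were 0.785 and 0.907 CPM (95% exact Poisson intervals 0.429 to 1.32 and 0.538 to 1.43). Set against 3 counts in the untreated libraries together, 0.0658 CPM, Cxcl9 was at least 12.9-fold higher, or 11.9-fold and 13.8-fold from the first and the second treated library alone. It passed the count filter only through the IFN-beta libraries, so its tested value (edgeR adjusted p = 0.0030) had to show a difference. Without a count filter its edgeR adjusted p was 1.4e-06. That fit also gave far smaller adjusted p-values for genes such as Irf7 at about the same fold, though not for Nup54. The smaller value is therefore not read as stronger evidence, and the cause of the drop was not tested.

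Cxcl11 had 7 and 29 counts with IFN-beta and 0 in both untreated libraries, which was at least 14.5-fold higher on pooled counts. That bound rests on the second treated library, since the first alone gives at least 5.96-fold and the second alone at least 22.2-fold. Cxcl11 was below the count filter and has no test there. Without the filter its edgeR adjusted p was 1.9e-07, with the same limit as for Cxcl9. The treated replicates, 0.392 CPM (0.158 to 0.808) and 1.46 CPM (0.979 to 2.10), differed by more than counting error. RefSeq lists Cxcl11 as a transcribed pseudogene in the C57BL/6J assembly, the strain background of these cells, so its reads are transcripts of a locus that is not annotated there as protein-coding. The bounds of Cxcl9 and Cxcl11 are set by the absence of untreated reads and cannot be ranked against the fold of Cxcl10.

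**Figure D1:**
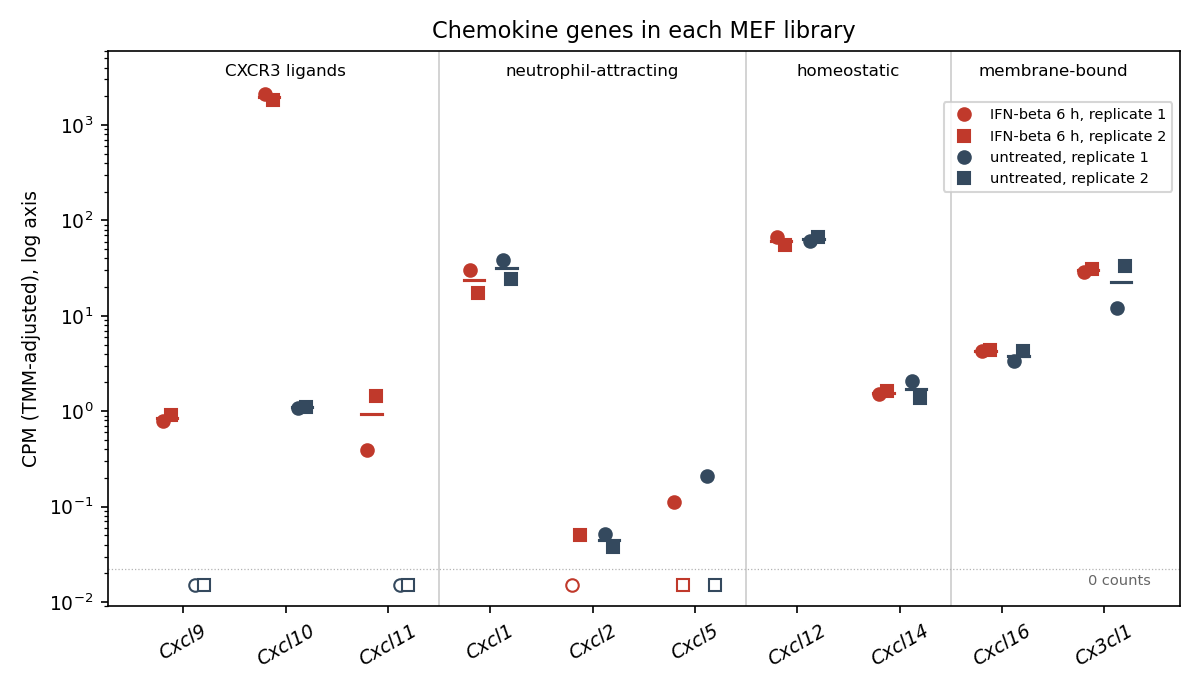
CPM of each of the 10 chemokine genes (log axis) in the 2 IFN-beta libraries (red) and the 2 untreated libraries (dark blue), with circles for replicate 1, squares for replicate 2, short lines for the group mean where both libraries had counts, and open symbols on the bottom strip for 0 counts. Cxcl10 stands at 2110 and 1830 CPM with IFN-beta and at 1.09 and 1.10 CPM without, Cxcl9 and Cxcl11 have open symbols in both untreated libraries, and no other gene shows such a gap between the groups.

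The start regions of the induced ligand genes are shown because type I interferon is known to act on target genes through an interferon-stimulated response element (ISRE). Promoter windows of 300 bases, 250 before and 50 after the annotated start, were in RefSeq's table (build GRCm38.p6) for 7 of the 10 members. The counts themselves were made on mm9, and these coordinates are not mm9 coordinates. Windows were searched on both strands for the ISRE core GAAANNGAA and the NF-kB consensus. Capitals mark ISRE core and NF-kB matches in the 250 bases before the start of Cxcl10 (chr5:92348890-92349139, minus strand) and Cxcl9 (chr5:92328080-92328329, minus strand), written 5′ to 3′ on the gene's strand.

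Cxcl10: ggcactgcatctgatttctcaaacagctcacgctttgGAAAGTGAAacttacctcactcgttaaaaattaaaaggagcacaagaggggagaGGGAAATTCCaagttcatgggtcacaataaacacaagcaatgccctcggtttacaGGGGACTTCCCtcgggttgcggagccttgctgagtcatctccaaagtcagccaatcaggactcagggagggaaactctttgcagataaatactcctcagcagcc

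Cxcl9: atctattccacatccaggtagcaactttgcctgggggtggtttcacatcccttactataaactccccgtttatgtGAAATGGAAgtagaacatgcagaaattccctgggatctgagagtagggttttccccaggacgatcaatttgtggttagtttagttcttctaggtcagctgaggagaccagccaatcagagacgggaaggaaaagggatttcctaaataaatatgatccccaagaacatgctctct

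The Cxcl10 window held 1 ISRE core, starting 213 bases before the start, and NF-kB matches starting 159, 104 and 103 bases before it, the last pair overlapping. The Cxcl9 window held 1 ISRE core, 175 bases before the start, and no NF-kB match. Cxcl14, which was not called, also held an ISRE core, 172 bases before its start, and it held the only match among the members to the gamma-activated site TTCNNNGAA, which reads the same on both strands. The windows of Cxcl12 and Cx3cl1 held none of these 3 motifs. Over all 32851 RefSeq windows, 8.56% held the ISRE core, 8.46% the NF-kB consensus and 8.30% the gamma-activated site. Of the other members' windows, those of Cxcl1 and Cxcl2 held only the NF-kB motif. A match describes the letters of the window and says nothing of binding in these cells.

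No neutrophil-attracting gene was called with all libraries kept. Cxcl1, an NF-kB target that MEFs make in culture, had 543 and 345 counts with IFN-beta and 736 and 645 counts without. These were 30.4 and 17.4 CPM with IFN-beta and 38.3 and 24.5 CPM without, so the groups overlapped. The log2 fold change was -0.39 ± 0.27 (SE, 95% interval -1.0 to 0.22), with an edgeR adjusted p of 0.490. Without untreated replicate 2 the value was -0.68 and passed (edgeR adjusted p = 3.9e-05), in a fit where the spread comes from the IFN-beta pair alone. The treated replicates of Cxcl1 differed by 0.81 on the log2 scale, and 1.37% of the 11359 genes that averaged at least 1 CPM differed by more between these libraries.

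Cxcl2 and Cxcl5 were close to silent in every library. Cxcl2 had 0 and 1 counts with IFN-beta and 1 and 1 without, so no fold is given. Cxcl5 had 2 and 0 counts with IFN-beta and 4 and 0 without, a pooled ratio of 0.605 (95% exact interval 0.0547 to 4.22). No change of either gene could be seen at this depth. The 250 bases before the starts of Cxcl1 (chr5:90890995-90891244, plus strand) and Cxcl2 (chr5:90903649-90903898, plus strand) are shown because they hold the same 11 letters at the NF-kB match, in capitals, while 1 gene was well counted and the other almost absent.

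Cxcl1: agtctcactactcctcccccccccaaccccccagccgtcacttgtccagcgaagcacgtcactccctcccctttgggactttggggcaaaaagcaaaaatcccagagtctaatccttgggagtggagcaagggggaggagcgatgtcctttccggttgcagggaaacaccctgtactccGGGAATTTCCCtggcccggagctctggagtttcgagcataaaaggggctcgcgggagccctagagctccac

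Cxcl2: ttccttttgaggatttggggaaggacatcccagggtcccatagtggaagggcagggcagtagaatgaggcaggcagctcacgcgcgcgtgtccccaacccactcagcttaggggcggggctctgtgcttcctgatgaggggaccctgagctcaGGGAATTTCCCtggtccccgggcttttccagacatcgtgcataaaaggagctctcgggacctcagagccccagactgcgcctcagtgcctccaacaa

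In both genes this stretch gave overlapping NF-kB matches, starting 71 and 70 bases before the start in Cxcl1 and 97 and 96 bases before it in Cxcl2. Neither window held an ISRE core.

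The homeostatic members were expressed with and without the cytokine. Cxcl12, the ligand of CXCR4 that retains stem cells and guides migrating cells in development, had 1190 and 1102 counts with IFN-beta and 1173 and 1760 without. These were 66.7 and 55.5 CPM with IFN-beta and 61.0 and 66.7 CPM without, so the groups overlapped. The log2 fold change of -0.06 ± 0.14 (SE) had a 95% interval of -0.38 to 0.25 (edgeR adjusted p = 0.854), the narrowest interval among the tested members. Cxcl14 was low, at 1.51 and 1.61 CPM with IFN-beta and 2.08 and 1.37 CPM without. Its log2 fold change was -0.12 ± 0.34 (SE, 95% interval -0.87 to 0.64, edgeR adjusted p = 0.891).

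The membrane-bound members were also not called. Cxcl16, the CXCR6 ligand that also takes up oxidised lipoprotein, had 76 and 86 counts with IFN-beta and 64 and 112 without. These were 4.26 and 4.33 CPM with IFN-beta and 3.33 and 4.25 CPM without, which do not overlap but nearly touch. In the same way 23.9% of all tested genes had both treated libraries above both untreated ones. Its log2 fold change was 0.17 ± 0.24 (SE, 95% interval -0.36 to 0.71, edgeR adjusted p = 0.753). The spans of Cxcl16 and Zmynd15 overlap in RefSeq, and Zmynd15 had 3 and 4 counts with IFN-beta and 4 and 4 without.

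Cx3cl1, which encodes fractalkine, the adhesion ligand of CX3CR1, gave the widest replicate spread among the 6 members compared this way. It had 517 and 620 counts with IFN-beta and 232 and 881 without, or 29.0 and 31.2 CPM with IFN-beta and 12.1 and 33.4 CPM without. Both treated values lay between the untreated ones. The untreated replicates differed by 1.47 on the log2 scale, against a median of 0.22 over 11359 genes, and 74 of those genes differed by more. The log2 fold change was 0.39 ± 0.35 (SE, 95% interval -0.39 to 1.18, edgeR adjusted p = 0.599). Without untreated replicate 2 it was 1.32 and passed (edgeR adjusted p = 3.5e-13), and without untreated replicate 1 it was -0.13 (edgeR adjusted p = 0.737). Which untreated library is kept therefore sets both the sign and the call for this gene.

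**Figure D2:**
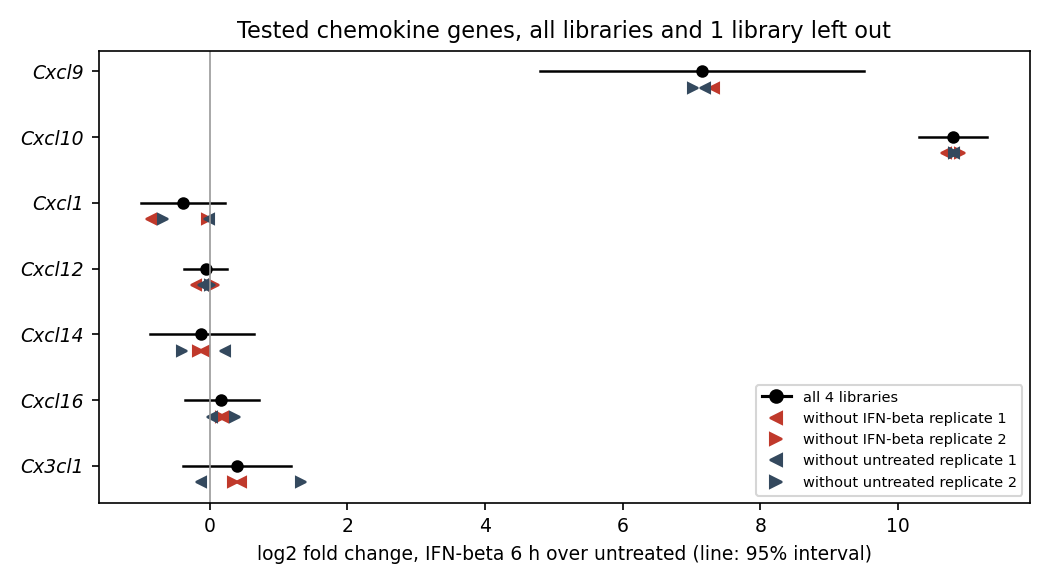
Log2 fold change of IFN-beta over untreated for the 7 tested members, with black dots and 95% interval lines for all 4 libraries and triangles for fits without 1 library (red, an IFN-beta library; dark blue, an untreated one). Cxcl10 stays near 10.80 in every fit, and Cx3cl1 runs between -0.13 and 1.32 depending on the untreated library left out.

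The reads of the 10 genes changed in make-up. Cxcl10 took 94.1% and 94.2% of their reads in the IFN-beta libraries, against 0.925% and 0.837% in the untreated libraries. Cxcl12 took 2.98% and 2.85% with IFN-beta and 51.7% and 50.8% without. Cxcl1 took 1.36% and 0.893% with IFN-beta and 32.4% and 18.6% without, and Cx3cl1 took 1.29% and 1.60% with IFN-beta and 10.2% and 25.4% without. The lower shares of Cxcl12, Cxcl1 and Cx3cl1 stand beside CPM values that were not called changed, and the total reads of the 10 genes were 39957 and 38645 with IFN-beta and 2271 and 3464 without. Cxcl10 held 0.199% and 0.176% of all gene counts in the IFN-beta libraries, against 0.000113% and 0.000117% in the untreated libraries.

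**Figure D3:**
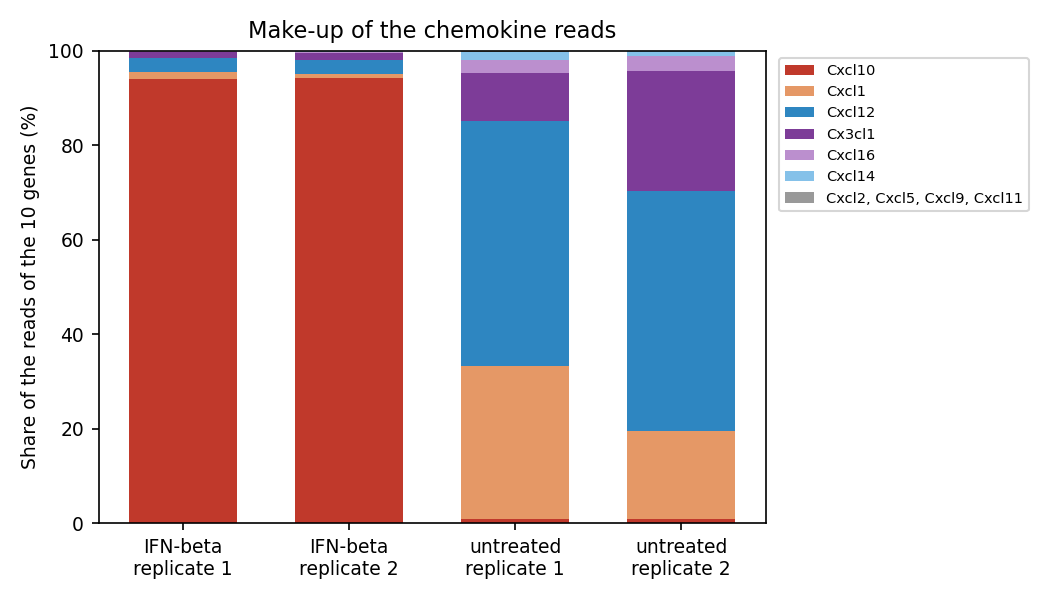
Stacked bars of the percentage of reads of the 10 chemokine genes that fell on each gene, for the 2 IFN-beta libraries (left) and the 2 untreated libraries (right), with no correction for transcript length. Cxcl10 fills 94.1% and 94.2% of the IFN-beta bars, and Cxcl12 fills 51.7% and 50.8% of the untreated bars.

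Cxcl9, Cxcl10 and Cxcl11 lie next to each other on chromosome 5, so the genes around them were read in RefSeq order. Art3, whose span covers Cxcl10 and Cxcl11 in RefSeq, had 2 and 3 counts with IFN-beta and 1 and 1 without, far fewer than the Cxcl10 reads. Of the flanking genes, Sdad1 rose, at 136 and 134 CPM with IFN-beta and 74.7 and 89.9 CPM without (log2 fold change 0.71, edgeR adjusted p = 0.011). Scarb2, a lysosomal membrane protein gene, rose as well, at 84.5 and 82.1 CPM with IFN-beta and 47.7 and 37.8 CPM without (0.96, edgeR adjusted p = 0.0029). Nup54, a nuclear pore gene that lies between Cxcl11 and Scarb2, was not called, with a log2 fold change of 0.17 (edgeR adjusted p = 0.505). Naaa, on the far side of Sdad1, was not called either (0.33, edgeR adjusted p = 0.422).

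Cxcl5, Cxcl1 and Cxcl2 lie in another cluster on the same chromosome with Ppbp, Pf4, Cxcl3 and Cxcl15. At its edge Rassf6 fell, at 8.13 and 9.57 CPM with IFN-beta and 15.0 and 15.2 CPM without (-0.77, edgeR adjusted p = 0.0335). That call was lost without IFN-beta replicate 1 (adjusted p = 0.477) and without IFN-beta replicate 2 (0.0901). Ereg, on the other side of the cluster, was at 139 and 93.2 CPM with IFN-beta and 60.9 and 86.5 CPM without. Its log2 fold change of 0.65 was not called (edgeR adjusted p = 0.133, unadjusted 0.0121). DESeq2 (adjusted p = 0.04) and edgeR with the replicate block (0.0341) or no filter on counts (0.000367) called it higher. Of the 6 other CXC ligand genes only Ppbp had enough counts to be tested, with 29 and 20 counts with IFN-beta and 17 and 26 without, and it was not called (edgeR adjusted p = 0.549, unadjusted 0.240). Cxcl3, Pf4, Cxcl13 and Cxcl15 had 5 counts or fewer in every library, and Cxcl17 was at 0.

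**Figure D4:**
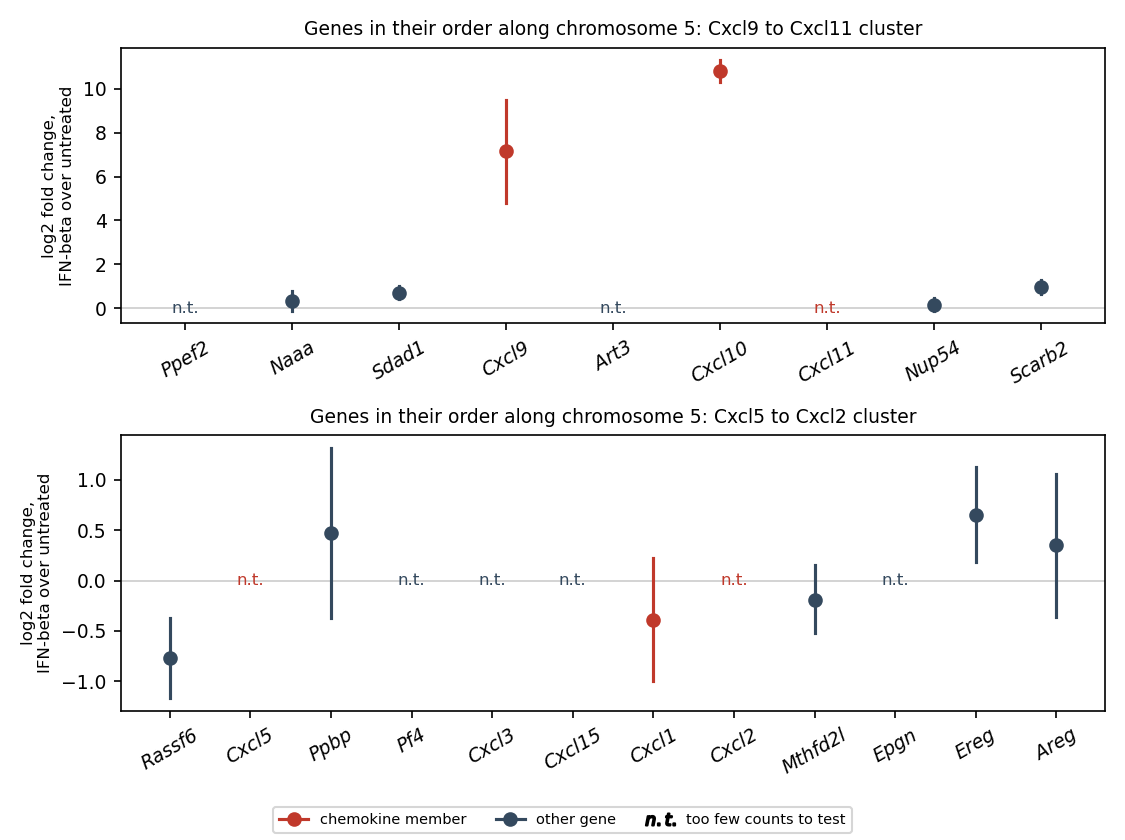
Log2 fold change of IFN-beta over untreated with 95% interval lines for genes in their RefSeq order along chromosome 5, above for the cluster of Cxcl9, Cxcl10 and Cxcl11 and below for that of Cxcl5, Cxcl1 and Cxcl2, with chemokine members in red, other genes in dark blue and n.t. for genes with too few counts. In the upper panel Cxcl10 stands at 10.80 and the flanking genes at 0.17 to 0.96.

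The receptors of these ligands were mostly absent or low. Cxcr3 had 0 counts in every library, which allows up to 0.0796 CPM over the pooled IFN-beta libraries and 0.0658 CPM over the untreated ones. Cxcr1 and Ackr1 were also at 0, and Cxcr4 had 3 to 5 counts per library. Cxcr2, the receptor of the neutrophil-attracting ligands, had 136 and 176 counts with IFN-beta and 191 and 224 without and was not called (edgeR adjusted p = 0.723). Cxcr2 was itself on the fixed list of neutrophil markers. Of the others on that list, S100a9 and Elane were at 0 in the same libraries, S100a8 and Mpo had at most 1 count each, and Ly6g was not found. Of 4 tested receptor genes 1 was called higher, against 4.73% of all tested genes, with 2 at an unadjusted p under 0.05. Ackr3, a scavenging receptor for CXCL12 and CXCL11, rose to 16.1 and 11.1 CPM with IFN-beta, against 7.59 and 6.37 CPM without (log2 fold change 0.97 ± 0.22 SE, edgeR adjusted p = 0.0334). That call was lost without IFN-beta replicate 1 (adjusted p = 0.470) and with total library size scaling (0.0622). Cxcr6, the receptor of CXCL16, had 24 and 31 counts with IFN-beta and 5 and 18 without (log2 fold change 1.55 ± 0.45 SE, unadjusted p = 0.0069, edgeR adjusted p = 0.0963). It was called higher with the replicate block (edgeR adjusted p = 0.0108), with no filter on counts (0.0118) and when untreated replicate 2 was left out (0.0024).

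Regulators of chemokine transcription were read as separate interferon-side and NF-kB-side lists, and the difference between the lists was not tested. Of 6 tested interferon-side genes 5 rose, against 4.73% of all tested genes called higher. Their median log2 fold change was 4.32 over the 6, against -0.02 over all tested genes. Stat2, a signal transducer of interferon receptors, had 1758 and 2579 counts with IFN-beta and 61 and 98 without, and Irf7 had 1728 and 1745 counts with IFN-beta and 0 and 3 without. Irf7 passed the count filter only through the IFN-beta libraries, so its call had to show a difference. The count and the median are therefore not read against all genes. With no filter on counts 5 of the 7 listed genes were called higher, and 5.16% of all genes were. Of 10 tested NF-kB-side genes, which encode subunits and inhibitors of the factor that drives Cxcl1 and Cxcl2, edgeR called 0, with a median of 0.06. At an unadjusted p under 0.05 edgeR also gave 0, as did the adjusted counts of DESeq2 and limma-voom. Without untreated replicate 2, the log2 fold changes of Nfkb1 and Tnfaip3 were 0.47 and 0.48, against 0.20 and 0.11 with all libraries. Both were named after their values were seen.

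Among upstream inputs of neutrophil chemokines, the cytokine gene Il6 rose to 436 and 528 counts with IFN-beta, against 23 and 22 without (log2 fold change 4.67 ± 0.23 SE, edgeR adjusted p = 4.4e-07). Il1r1, the signalling receptor of interleukin-1, fell to 16.8 and 14.6 CPM with IFN-beta, against 26.4 and 25.7 CPM without (log2 fold change -0.73 ± 0.16 SE, edgeR adjusted p = 0.0237). That call was lost without IFN-beta replicate 1 (adjusted p = 0.0831) and without IFN-beta replicate 2 (0.263). Il1b was at 0 and Tnf had at most 2 counts in any library. Of 9 such genes 4 were tested, 1 rose and 1 fell, against 4.73% of all tested genes called higher and 0.495% lower. Tnfrsf1a, a TNF receptor gene, was at 39.0 and 33.7 CPM with IFN-beta and 23.6 and 24.8 CPM without. Its log2 fold change of 0.59 ± 0.15 (SE) was not called (edgeR adjusted p = 0.0521). It was called higher by DESeq2 (adjusted p = 0.029), with DESeq2 size factors in edgeR (0.049) and with no filter on counts (edgeR adjusted p = 0.0096). Of 7 tested RNA-decay regulators 1 rose, against 4.73% of all tested genes, with 3 at an unadjusted p under 0.05. The count was 2 without a count filter, where 5.16% of all genes were called higher, and it changed with the library left out. Zfp36, whose product tristetraprolin binds AU-rich elements of unstable cytokine and chemokine transcripts, was at 13.7 and 9.27 CPM with IFN-beta and 4.78 and 5.35 CPM without (log2 fold change 1.18 ± 0.23 SE, edgeR adjusted p = 0.0141, lost without IFN-beta replicate 1 at 0.190). Of 5 tested protease genes that cleave or shed these chemokines, among them Adam10 and Adam17, edgeR called 0 (1 at an unadjusted p under 0.05), as did DESeq2 and limma-voom. Named after their values were seen, Ctss was called higher without untreated replicate 1 and Mmp14 without untreated replicate 2.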

How the data were processed

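The authors deposited raw read counts for each gene symbol, with a separate table for each RNA-seq library. Per the labels' protocols, Trizol RNA went into TruSeq libraries. The submitters' processing notes name TopHat2 2.0.13, HTSeq 0.7.2 and the mm9 build. Which annotation and strand setting were used is not given in the sources used here, so a gene and an overlapping antisense gene cannot be separated. Each table also held 5 lines that name no gene, with 57.3% to 61.28% of records, which entered neither the library sizes nor the test.

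The test was edgeR 4.0.16 in R 4.3.3 (quasi-likelihood F test, TMM, minimum count 10, minimum total count 15, group as the only term) and a call needed an adjusted p (Benjamini-Hochberg over 12128 genes) under 0.05. The standard error is the log2 fold change divided by the square root of F. A fold against 0 untreated counts used a floor of 3 pooled counts. Intervals are 95% intervals, and those of counts and ratios hold counting error alone. An exact two-sided permutation test of these groups reaches p = 0.333 at the smallest and was not used. The procedure was tested on simulated data.

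All members and, of the related lists, called genes are named, up to 3 a list. Pdgfra, Fcgr1, Lyz2, Csf1r, Cd14, Cd68, Cxcr6, Tnfrsf1a, Kdr, Tek and Ereg were named after their values were seen. So were Col1a1, Col1a2, Dcn and Lum. The genes nearest to each called member are those with the smallest distance between log2 CPM values (prior count 2), centred on each gene's mean over the 4 libraries. Members, lists and tests were chosen with earlier results of these data known. Alternatives were other scalings, count filters, DESeq2 1.42.0, limma-voom (limma 3.58.1), a replicate block, other prior counts and each library left out. No transcript lengths and no protein sequences were used. Values of a few items are not reported here.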

Additional observations from a re-analysis of the deposited data

How the results depend on the processing

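Cxcl10 was called higher under all 13 settings tried, between 10.66 and 10.90 on the log2 scale. Cxcl9 was tested under 11 settings, in all but the fit without a count filter only because its treated counts let it pass, and those calls are not counted here. Cxcl12, Cxcl14 and Cxcl16 were called under none. The calls of Cxcl1 and Cx3cl1 came only without untreated replicate 2, with log2 fold changes of -0.68 and 1.32. Leaving out 1 library at a time gave -0.85 to -0.01 for Cxcl1, -0.20 to 0.06 for Cxcl12, -0.41 to 0.22 for Cxcl14 and -0.13 to 1.32 for Cx3cl1. Signs turned for Cxcl12 without IFN-beta replicate 2 (0.06) and untreated replicate 2 (0.00), for Cxcl14 without untreated replicate 1 (0.22) and for Cx3cl1 without untreated replicate 1 (-0.13). The cause was not tested. For the NF-kB inhibitor gene Tnfaip3 (0.11 with all libraries) the sign turned with total library size (-0.03) and without untreated replicate 1 (-0.14), and it was 0.48 without untreated replicate 2. For the protease gene Ctss (0.65) leaving out 1 library gave -0.10 to 1.74, below 0 without untreated replicate 2 (-0.05) or IFN-beta replicate 1 (-0.10). For the leukocyte marker Lyz2 (-1.08) leaving out 1 library gave -1.99 to 0.03, above 0 without untreated replicate 1.

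Members called higher numbered 2, with 1 under the filter of 1 CPM in at least 2 libraries, which drops Cxcl9, and 1 to 4 with a library left out. Members called lower numbered 0, with 0 to 1 when a library was left out. A lone library in such a fit is assumed to vary like those of the other group. Without a count filter 3 members were called higher, the third being Cxcl11. Over all genes, 574 were higher and 60 lower. The higher count was 863 without a count filter and 470 to 1885 with a library left out. The lower count was 350 with total library size, 128 with upper quartile scaling, 381 without a count filter, 103 with DESeq2 and 24 to 1728 with a library left out. Under total library size the median over all genes was -0.16 and the share of higher calls was 57.7%, against 90.5% with TMM. Upper quartile scaling gave 80.2%.

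Same-numbered replicates did not deviate together (correlation -0.104). The replicate block gave 692 higher and 155 lower genes and changed no member's call. Crossing the numbers, an alternative added after the data were seen, gave 386 lower genes. No order of levels per kilobase was made, since no transcript lengths were used. Searching only the 250 bases before the start changed no member's motif count. Depth limits Cxcl2, Cxcl5, Cxcl9 and Cxcl11, which had at most 29 counts in a library.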

Other observations

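The genes whose pattern over the 4 libraries was most like that of Cxcl10 were antiviral genes. Among the 11358 genes that averaged at least 1 CPM, Ifit1, which encodes a protein that binds viral RNA ends, was nearest, at a distance of 0.358 in centred log2 CPM. It had 30774 and 39268 counts with IFN-beta and 24 and 30 counts without. Ifit3, its partner, followed at 0.603, with 21599 and 26049 counts with IFN-beta and 21 and 25 without. Mx1, a dynamin-like antiviral GTPase, stood at 0.651, with 3088 and 4972 counts with IFN-beta and 0 in both untreated libraries. The untreated level of Mx1 in this distance is set by the prior count of 2, so its nearness to Cxcl10 is not a measured likeness. Cxcl10 was slightly lower in the second treated library than in the first, whereas the counts of these 3 genes were higher there.

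For Cxcl9 the nearest genes were Lgals9, which encodes the lectin galectin-9 (distance 0.154), the gene Gm6548 (0.241) and Psmb10, an immunoproteasome subunit gene (0.319). Lgals9 had 1453 and 1727 counts with IFN-beta and 153 and 200 without. The prior count of 2 pulls the low values of Cxcl9 together, so these genes share its damped pattern. The log2 fold change of Lgals9 was 3.44, which cannot be ranked against Cxcl9, whose fold is a bound over 0 untreated counts.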
